A study of Mus musculus with 6 samples.

Results

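The collagen genes are the 42 genes on the array whose symbol has the form Col, digits, a, digits, out of 18193 genes measured and out of 44 collagen genes of that form in the RefSeq gene table. Their levels were read in the RNA of mouse embryonic lungs at E18.5, late in gestation. 3 arrays are labelled GATA6 KO (KO 1, KO 2 and KO 3) and 3 are labelled wild type (WT 1, WT 2 and WT 3), each an Affymetrix Mouse430_2 expression array. The labels call the mutant tissue GATA6 KO or GATA6 null, and GATA6 is a zinc finger transcription factor of the lung epithelium and other tissues. The allele, any Cre driver, the strain, and whether an array holds 1 embryo or a pool are not given in the sources used here, so the p-values measure the spread between these arrays, which may be technical. Each gene is represented by its brightest probe set over the 6 arrays, and levels are log2 of the intensity plus 16. That added 16 makes the differences of low genes smaller than they would be as ratios of intensities.

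Collagens are proteins of 3 chains wound into a triple helix, and each gene encodes 1 chain. Fibrillar collagens such as types I, III and V form the rope-like fibrils that carry tension. Network-forming collagens include type IV, the sheet of every basement membrane, which is built from Col4a1 and Col4a2 chains in most tissues and from Col4a3, Col4a4 and Col4a5 chains in specialised ones such as the kidney glomerulus and the lung alveolus. FACIT collagens decorate the surface of fibrils, membrane collagens are anchored in the cell surface by a transmembrane segment, type VI forms beaded filaments around cells, and the multiplexins, types XV and XVIII, sit in basement membrane zones. By class the 42 genes are 11 fibrillar, 9 network-forming, 9 FACIT, 4 membrane, 5 of type VI, 2 multiplexins, and Col7a1 and Col26a1 outside these classes.

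The arrays had a median intensity of 20.6 to 24.1, and their number limits the precision of every value. The targeted gene did not check the labels. Gata6, by its brightest probe set, stood at 11.58, 11.39 and 11.19 log2 in KO 1 to 3, against 11.12, 10.26 and 10.42 in WT 1 to 3, a difference of 0.79 (SE 0.24, adjusted p = 0.964 in limma). Where it lies relative to the deleted part is not known here, so every direction below is one between labels. Fluidics station 1 washed WT 1 and WT 2, station 2 washed the other 4 arrays, and every WT array was scanned before any KO array, so that group and scan order cannot be told apart. The arrays also differed in a way the labels do not follow. The median of bright probe sets that name no gene, relative to bright named ones, was -0.96, -0.46 and -0.03 log2 in KO 1 to 3, against -0.23, -1.02 and -0.94 in WT 1 to 3, which sets KO 1, WT 2 and WT 3 apart from the others.

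No collagen gene passed the test between KO and WT lungs. The basement membrane genes Col4a3 and Col4a4 read 3.72-fold and 1.88-fold lower in KO lungs, and the membrane collagen gene Col13a1 1.37-fold lower, with all 3 KO arrays below all 3 WT arrays in each. The fibrils' own genes, Col1a1, Col1a2, Col3a1, Col5a1, Col5a2 and Col27a1, differed by 0.17 log2 or less in their brightest probe sets. Over the 42 genes 0 had an adjusted p under 0.05 in limma, beside 1 of all 18193 genes (0.00550%). At an unadjusted p under 0.05 there were 3 collagen genes, Col4a3, Col4a4 and Col13a1, each lower, against 2.59% of all genes lower and 2.00% higher.

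The median difference over the 42 genes was -0.03 log2, against 0.0025 over all genes. There were 26 genes lower and 16 higher in KO lungs, where 41.6% of all genes were lower, and 26 of the 42 differed by less than 0.1 in either direction. In 3 of the 42 genes all KO arrays lay below all WT arrays, beside 3.81% of all genes, and in 1 they lay above, beside 5.89%. That 1 gene was Col19a1, a FACIT gene near the floor of the arrays, which differed by 0.02 (SE 0.02). Of the 42, 20 were bright, with a group mean at or above 6.88 log2, the median of all genes, and each of these 20 was bright in both groups. The other 22 were dim in both groups, and 12 of them read under 5 log2 on every array.

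**Figure D1:**
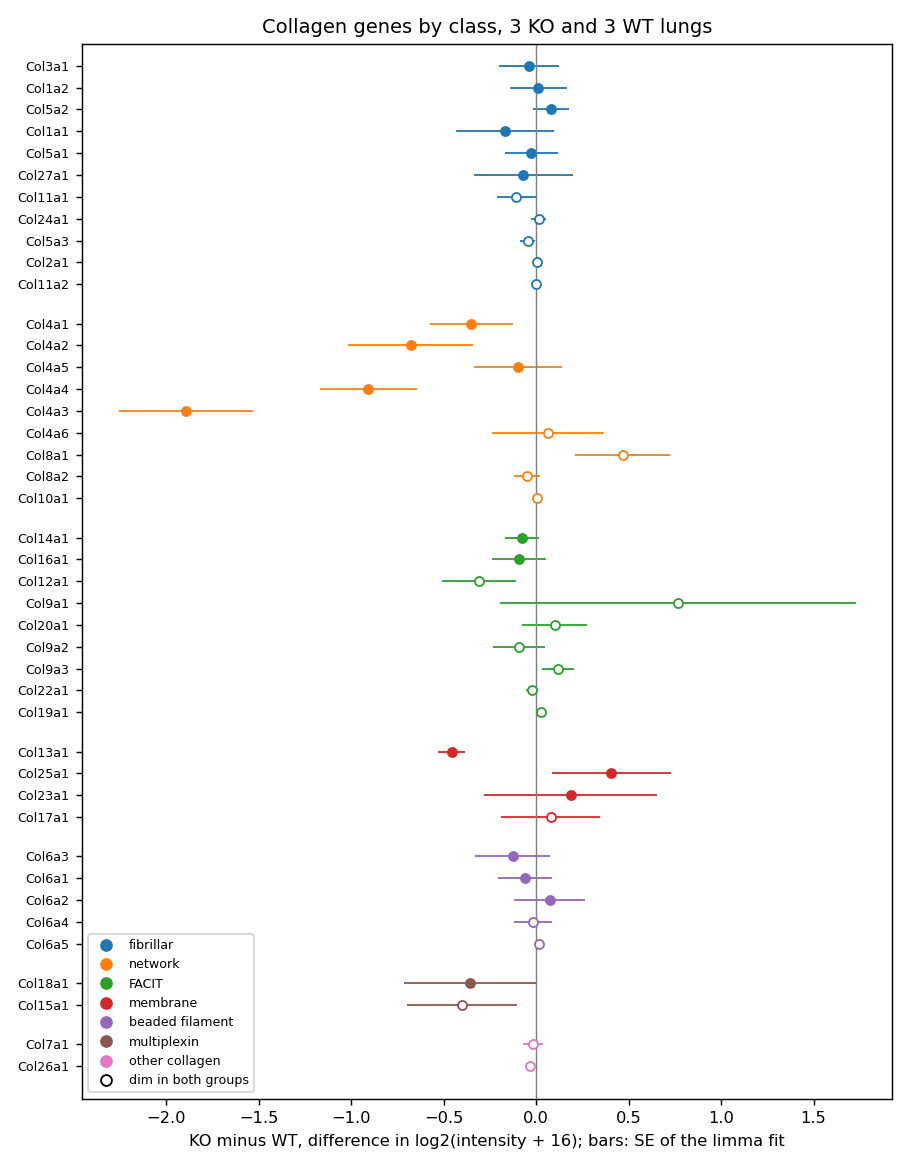
Difference between KO and WT lungs for each of the 42 collagen genes, grouped by class, as log2(intensity + 16), with bars giving the standard error of the limma fit; open points are genes dim in both groups. Col4a3 (-1.89), Col4a4 (-0.91), Col4a2 (-0.68) and Col13a1 (-0.46) stand furthest to the left, while the bright fibrillar genes lie within 0.17 of 0.

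Col4a3 and Col4a4 encode chains of the alveolar and glomerular type IV network. They lie head to head on chromosome 1. The promoter window of Col4a4 in RefSeq (GRCm38.p6, chr1:82586800-82587099, minus strand, 250 bases before to 50 after the start used there) already overlaps Col4a3. The annotated spans of both genes overlap too, since that of Col4a4 reaches 82587034 and that of Col4a3 begins at 82586921. Part of the bases before that start thus lie within the span of Col4a4. The window is that of Col4a4 alone. It is shown because these genes read lower together, and the 179 capitals mark the bases inside the annotated span of Col4a3.
Col4a4: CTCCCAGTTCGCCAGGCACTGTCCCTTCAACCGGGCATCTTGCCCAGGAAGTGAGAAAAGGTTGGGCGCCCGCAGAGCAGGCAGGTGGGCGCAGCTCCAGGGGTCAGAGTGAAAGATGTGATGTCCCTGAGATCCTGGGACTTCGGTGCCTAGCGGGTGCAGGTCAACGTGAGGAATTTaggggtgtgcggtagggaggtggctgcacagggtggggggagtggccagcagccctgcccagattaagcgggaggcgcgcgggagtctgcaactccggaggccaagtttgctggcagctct

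Col4a3 read 6.69, 7.94 and 7.0 log2 in KO 1 to 3, against 9.07, 9.44 and 8.81 in WT 1 to 3. The highest KO lung, KO 2, was still below the lowest WT lung. In intensity the means were 143.3 in KO and 544.5 in WT lungs. The log2 difference was -1.89 (SE 0.36, 95% interval -2.79 to -1.0), with an unadjusted rank of 42 among 18193 genes and an adjusted p of 0.829 in limma. Its 20 alternative settings gave differences from -2.26 (without KO 2) to -1.59 and adjusted p from 0.194 to 1, so the size and direction held while the test was not passed in any of them.

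Col4a4 read 10.56, 11.09 and 10.67 log2 in KO 1 to 3, against 11.24, 12.14 and 11.65 in WT 1 to 3. KO 2 was again the highest KO lung, and WT 2 the highest WT lung, as for Col4a3. The difference was -0.91 (SE 0.26, 95% interval -1.55 to -0.27, adjusted p = 0.964 in limma). All 5 probe sets of these genes, 2 for Col4a3 and 3 for Col4a4, had every KO array below every WT array. The second Col4a3 probe set differed by -1.83, and the other Col4a4 probe sets by -1.11 and -1.01.

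Col4a5, which encodes the chain that completes the alveolar network with Col4a3 and Col4a4, read 12.16, 11.42 and 11.31 log2 in KO 1 to 3, against 11.56, 11.83 and 11.80 in WT 1 to 3. The groups overlapped, since KO 1 was the highest of the 6 arrays. The difference was -0.10 (SE 0.24, 95% interval -0.69 to 0.49). Its neighbour on the X chromosome, Col4a6, was dim and differed by 0.06 (SE 0.30).

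Col4a1 and Col4a2 encode the chains of the common basement membrane network and also lie head to head. Their RefSeq promoter windows (GRCm38.p6, chr8:11312777-11313076 on the minus strand for Col4a1 and chr8:11312555-11312854 on the plus strand for Col4a2) share 78 bases, given in capitals on both strands. They are shown because both genes followed the same order over the arrays within KO and WT lungs, apart from KO 2 and KO 3.
Col4a1: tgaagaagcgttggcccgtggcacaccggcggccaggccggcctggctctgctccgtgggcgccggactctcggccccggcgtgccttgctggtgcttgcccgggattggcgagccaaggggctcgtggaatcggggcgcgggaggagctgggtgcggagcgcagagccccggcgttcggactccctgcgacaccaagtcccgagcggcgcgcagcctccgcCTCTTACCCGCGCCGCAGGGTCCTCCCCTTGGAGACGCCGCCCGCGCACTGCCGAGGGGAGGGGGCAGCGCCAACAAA
Col4a2: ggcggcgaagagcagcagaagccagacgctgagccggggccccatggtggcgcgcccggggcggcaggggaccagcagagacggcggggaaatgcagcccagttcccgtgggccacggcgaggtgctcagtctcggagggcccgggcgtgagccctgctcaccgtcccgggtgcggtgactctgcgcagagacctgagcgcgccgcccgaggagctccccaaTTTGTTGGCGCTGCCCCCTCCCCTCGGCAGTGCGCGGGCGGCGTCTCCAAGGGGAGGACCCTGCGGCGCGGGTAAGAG

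Col4a1 read 14.51, 13.84 and 13.88 log2 in KO 1 to 3, against 14.25, 14.63 and 14.40 in WT 1 to 3. KO 2 and KO 3 lay below every WT lung, and KO 1 lay between WT 3 and WT 2, so the groups overlapped. The difference was -0.35 (SE 0.22), -0.57 without KO 1 and -0.23 without KO 2. Col4a2 read 12.84, 12.15 and 11.84 log2 in KO 1 to 3, against 12.52, 13.45 and 12.90 in WT 1 to 3. Here too KO 1 was the KO lung inside the WT range. The difference was -0.68 (SE 0.34, 95% interval -1.51 to 0.15, adjusted p = 0.964 in limma), -0.96 without KO 1 and -0.43 without WT 2.

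**Figure D2:**
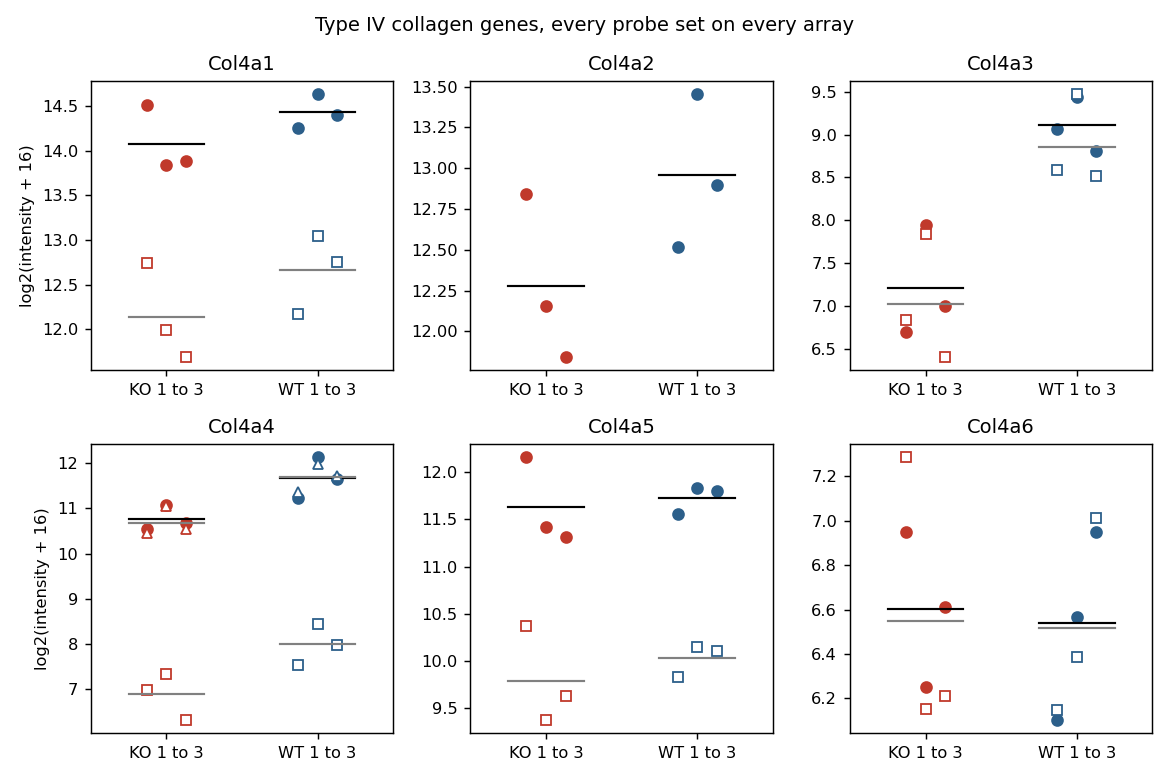
Level of the 6 type IV collagen genes on each array, as log2(intensity + 16) on an axis of its own per gene, KO arrays 1 to 3 left and WT arrays 1 to 3 right; filled circles are the brightest probe set, open symbols the other probe sets, and lines the group means. Every probe set of Col4a3 and Col4a4 separates the groups, while KO 1 lies within or above the WT lungs for Col4a1, Col4a2 and Col4a5.

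Relative to Col4a1 on the same array, Col4a3 differed between KO and WT lungs by -1.54 and Col4a4 by -0.56 on the log2 scale. Relative to Col4a5, the remaining alveolar chain, they differed by -1.80 and -0.81. For Col4a3 the groups did not overlap in either case. For Col4a4 relative to Col4a1 they overlapped, with KO 2 at -2.75 and WT 1 at -3.01. For Col4a4 relative to Col4a5 they nearly met, with KO 2 at -0.34 and WT 1 at -0.32. Col4a1 relative to the fibrillar gene Col1a2 differed by -0.36. There the groups did not overlap but nearly met, with KO 1 at 0.51 and WT 3 at 0.54, whereas they overlapped for Col4a1 alone. These gene pairs were chosen after the values were seen, so the differences are given as a description with no test.

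Beside Col4a3 and Col4a4 stand the marker genes of alveolar type I cells, which form the thin surface for gas exchange. All 9 listed markers read lower in KO lungs, with a median of -1.25, and their summed intensity was 40900 to 84856 in KO and 85698 to 108207 in WT lungs. In 2 of the 9, Akap5 and Cldn18, all KO arrays lay below all WT arrays, beside 3.81% of all genes. The groups overlapped for the other markers, and KO 2 read 11.43 for Pdpn, inside the WT range of 11.14 to 11.91. None of the 9 passed the test, and none was at the floor in the WT lungs. Cldn18, a tight junction gene of these cells, had the largest difference of the 9. It read 9.18, 11.91 and 9.81 log2 in KO 1 to 3, against 13.31, 13.22 and 13.48 in WT 1 to 3. KO 2 was its highest and KO 1 its lowest KO lung, as for the brightest Col4a3 probe set. In bulk lung, fewer cells of a type and less RNA per cell cannot be told apart, and the part of these cells in the Col4a3 and Col4a4 values was not tested. Markers of endothelium, which is among the sources of Col4a1 and Col4a2, read in the same direction as those genes. All 6 read lower, with differences from -0.91 to -0.09 and a median of -0.67. In 0 of the 6 did all KO arrays lie below all WT arrays, and 0 passed the test. Their summed intensity was 4542 to 6136 in KO and 4897 to 8651 in WT lungs. Pecam1, an adhesion molecule of endothelial junctions, read 10.07, 9.19 and 9.18 log2 in KO 1 to 3, against 9.54, 10.72 and 10.62 in WT 1 to 3, with KO 1 inside the WT range as for Col4a1. The part of endothelium was not tested either.

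The remaining network genes were dim. Col8a1, of the short-chain network around vessels, read 6.84, 5.99 and 6.17 log2 in KO 1 to 3, against 5.72, 6.01 and 5.87 in WT 1 to 3, and its groups overlapped. Its difference was 0.47 (SE 0.26), and its other probe sets were at the floor. Col8a2 and the hypertrophic cartilage gene Col10a1 differed by -0.05 and 0.00. Over the 9 network genes the median was -0.10, with 6 lower and 3 higher. It was -0.36 without KO 1 and 0.00021 without KO 2.

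Col13a1, which encodes a transmembrane collagen of cell junctions and matrix contacts, had the closest replicates of the bright collagens. It read 10.99, 10.97 and 10.89 log2 in KO 1 to 3, against 11.37, 11.44 and 11.41 in WT 1 to 3. The gap between the groups was wider than the range within either. The mean intensities were 1964 in KO and 2702 in WT lungs. The log2 difference was -0.46 (SE 0.07, 95% interval -0.64 to -0.28), the smallest p of the family with rank 23 among 18193 genes, and an adjusted p of 0.643 in limma. It ran from -0.49 to -0.43 over 20 alternatives, with adjusted p from 0.224 to 1, and was -0.44 with the composition of the arrays as a covariate and -0.46 within station 2. Only 1 probe set names this gene, so no second probe set bears on it.

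The promoter window of Col13a1 (GRCm38.p6, chr10:61979059-61979358, minus strand) is shown as that of the gene with the steadiest difference, with its single TATAAA match in capitals.
Col13a1: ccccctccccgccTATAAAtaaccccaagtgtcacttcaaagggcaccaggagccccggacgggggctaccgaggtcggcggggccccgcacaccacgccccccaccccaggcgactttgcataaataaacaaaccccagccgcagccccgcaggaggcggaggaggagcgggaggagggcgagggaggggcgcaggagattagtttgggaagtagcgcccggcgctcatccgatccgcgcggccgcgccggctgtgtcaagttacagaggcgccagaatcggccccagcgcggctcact
The letters GATA, the core that GATA factors bind, were searched on both strands of the 300-base windows. They occur in none of the windows shown, of Col4a4, Col4a1, Col4a2 and Col13a1. Col4a3 has no window of its own among those searched, so the letters could not be looked for there. They occur in 14 of 36 windows of 33 collagen genes in the table (38.9%) and in 57.9% of all 32851 windows. The windows of Col3a1 and Col4a5 hold them, while for Col18a1 only part of its windows do. TATAAA occurs in 13.9% of the collagen windows and 13.6% of all, and GGGCGG, the GC box, in 61.1% and 35.7%. A match is only a run of letters, and regions outside these windows were not searched.

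The other membrane collagens did not go with Col13a1. Col25a1, a transmembrane collagen gene known from neurons and developing muscle, read 10.23, 10.21 and 10.56 log2 in KO 1 to 3, against 10.61, 9.36 and 9.82 in WT 1 to 3. WT 1 was the highest array and WT 2 the lowest, and the difference of 0.41 (SE 0.32) was 0.12 without WT 2, 0.75 without WT 1 and 0.79 with array weights. The second Col25a1 probe set was at the floor in every lung, so the level rests on a single probe set. Col23a1 read 9.96, 8.49 and 8.82 log2 in KO 1 to 3, against 8.25, 9.08 and 9.38 in WT 1 to 3, and differed by 0.19 (SE 0.47). Its KO lungs spread more than those of any other bright collagen gene. Col17a1, a hemidesmosome protein of basal epithelial cells, was dim and differed by 0.08 (SE 0.27). The 4 membrane genes had a median of 0.13, and -0.18 without KO 1.

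**Figure D3:**
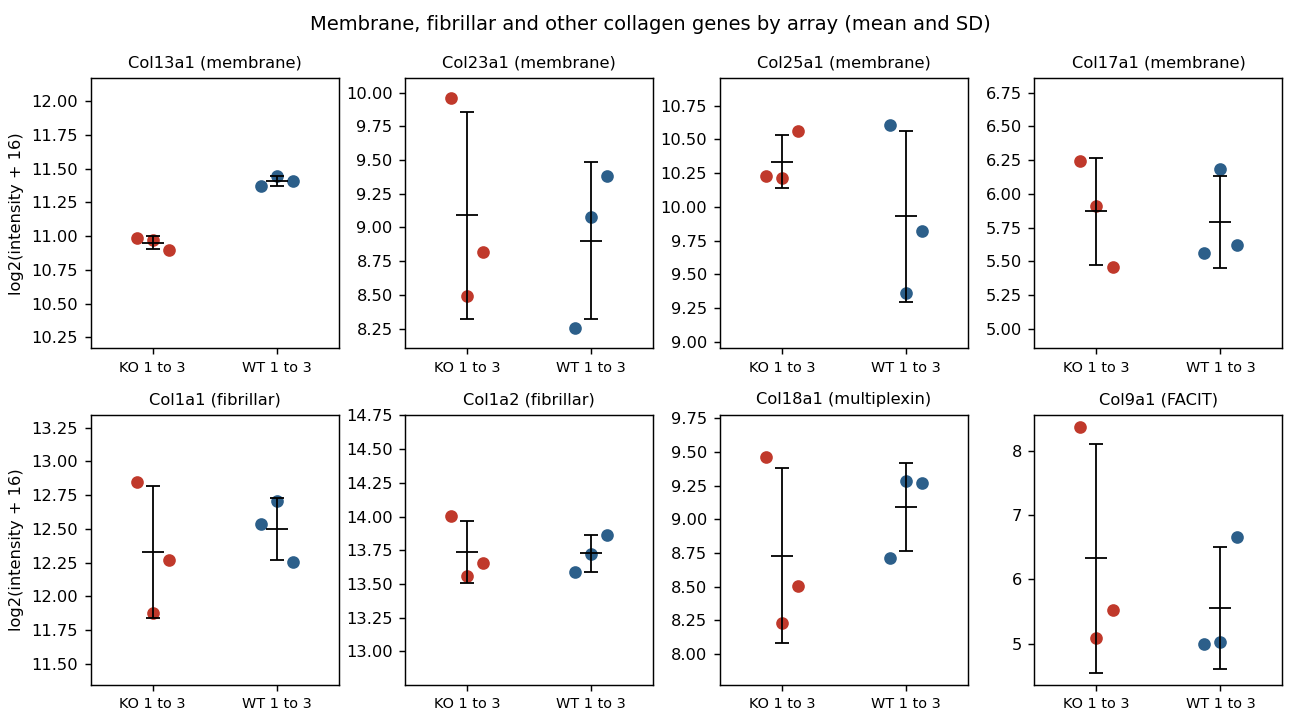
Level on each array of the 4 membrane collagen genes and of Col1a1, Col1a2, Col18a1 and Col9a1, as log2(intensity + 16), each panel with its own axis; points are KO arrays 1 to 3 left and WT arrays 1 to 3 right, with the mean and SD (n = 3). Col13a1 separates the groups with an SD of 0.05 in KO and 0.04 in WT lungs, while KO 1 is the highest array for Col1a1, Col1a2, Col18a1, Col23a1 and Col9a1.

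The genes of the fibrils overlapped between KO and WT lungs in all 11 cases. Col1a2, a chain of type I collagen, read 14.00, 13.56 and 13.65 log2 in KO 1 to 3, against 13.59, 13.72 and 13.86 in WT 1 to 3. The KO mean was 13.74 ± 0.23 and the WT mean 13.73 ± 0.13 (SD, n = 3 each), a difference of 0.01 with a 95% interval of -0.37 to 0.39. A true difference anywhere within that interval is compatible with these values. The second probe set of Col1a2 differed by -0.02, and the third, a far dimmer one, by 0.48 (SE 0.41), above that interval.

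Col1a1, the other type I chain, read 12.85, 11.88 and 12.27 log2 in KO 1 to 3, against 12.53, 12.71 and 12.25 in WT 1 to 3. KO 1 was the highest and KO 2 the lowest of the 6. The difference was -0.17 (SE 0.27, 95% interval -0.82 to 0.48). Col3a1, the chain of type III fibrils in compliant tissue, read 14.74, 14.30 and 14.41 log2 in KO 1 to 3, against 14.52, 14.66 and 14.39 in WT 1 to 3, and differed by -0.04 (SE 0.16). The type V genes Col5a1 and Col5a2, which start fibrils and set their width, differed by -0.03 (SE 0.14) and 0.08 (SE 0.10). Col27a1, a gene of cartilage and developing epithelia, differed by -0.07 (SE 0.27). The other, dimmer Col5a1 probe sets differed by more, at -0.62 and -0.19, and the second Col27a1 probe set by -0.30. The second probe sets of Col1a1 (0.065), Col3a1 (0.09) and Col5a2 (0.14) read higher in KO lungs.

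The dim fibrillar genes are mostly those of cartilage. Col2a1 and Col11a2 were at the floor of about 4.34 log2 in both groups, with differences of 0.00 each. Col11a1 read 4.72, 4.71 and 4.68 log2 in KO 1 to 3, against 4.67, 4.70 and 5.07 in WT 1 to 3, so that WT 3 stood above the other arrays. It was the 1 collagen gene called with fluidics station as a block (-0.36, SE 0.03, adjusted p = 0.038 in limma). That fit sets the KO arrays against WT 3 alone, and within station 2 the adjusted p was 0.147. Over the 11 fibrillar genes the median was -0.03, with 7 lower and 4 higher.

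Genes of 2 proteoglycans that coat fibrils, Dcn and Lum, stood in the fibroblast marker list and read higher in KO lungs, although neither passed. Dcn (decorin) read 10.24, 10.51 and 10.96 log2 in KO 1 to 3, against 9.55, 9.29 and 9.57 in WT 1 to 3, a difference of 1.10 (SE 0.20, adjusted p = 0.829 in limma). Lum (lumican) differed by 1.47 (SE 0.31, adjusted p = 0.832 in limma), also with no overlap. All KO arrays thus lay above all WT arrays in 2 of the 7 fibroblast markers, beside 5.89% of all genes. The other fibroblast markers Tcf21, Fn1, Postn, Pdgfra and Fgf10 ran from -0.25 to 0.02, the median of the 7 was -0.03, and their summed intensity was 43660 to 51041 in KO and 44166 to 51340 in WT lungs.

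Among the FACIT genes, Col14a1, which binds along type I fibrils, read 11.28, 11.21 and 11.39 log2 in KO 1 to 3, against 11.31, 11.49 and 11.31 in WT 1 to 3. It was among the steadiest bright collagens, with a difference of -0.08 (SE 0.09, 95% interval -0.31 to 0.15), or -0.12 without KO 3 and -0.02 without WT 2. Col16a1 differed by -0.09 (SE 0.14), and Col12a1, dim in both groups, by -0.31 (SE 0.20). Over the 9 FACIT genes the median was -0.02, with 5 lower and 4 higher.

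Col9a1, a FACIT gene known from type II fibrils in cartilage, varied more than any other collagen gene and did so within the groups. It read 8.36, 5.10 and 5.52 log2 in KO 1 to 3, against 5.00, 5.03 and 6.66 in WT 1 to 3. KO 1 and WT 3 stood above the other 4 arrays, and the second probe set had the same pair on top, at 5.38 and 5.19. The difference of 0.77 (SE 0.96) was smaller than its error. The same pair was highest in the summed intensity of the 8 cartilage markers, at 555, 412 and 241 in KO 1 to 3, against 299, 423 and 531 in WT 1 to 3. Of these genes, Acan, Comp, Matn1, Cnmd, Matn3 and Ucma lay near the floor, under 5 log2 on every array. The sum therefore rests mainly on Sox9 and Hapln1, and neither had KO 1 and WT 3 on top by itself. Sox9, a factor of cartilage and of distal lung epithelium, read 8.21 in KO 1, against 6.91 to 7.37 in the other arrays. Its WT 3 value of 7.27 was below that of KO 2. Hapln1 was highest in WT 3 at 8.51, and its KO 1 value of 7.93 was below the 8.07 of WT 2. The part of cartilage in the Col9a1 values was not tested. The partner genes Col9a2 and Col9a3 were dim and differed by -0.09 and 0.12.

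The type VI genes, whose chains form beaded filaments around cells, overlapped between the groups. Col6a3 read 13.44, 12.87 and 12.82 log2 in KO 1 to 3, against 13.04, 13.38 and 13.09 in WT 1 to 3, a difference of -0.13 (SE 0.20), which was -0.33 without KO 1 and -0.01 without KO 3. Col6a1 read 12.86, 12.43 and 12.72 log2 in KO 1 to 3, against 12.71, 12.89 and 12.60 in WT 1 to 3, a difference of -0.06 (SE 0.15). KO 1 was the highest KO lung for Col6a1, Col6a2 and Col6a3 alike. Col6a2 differed by 0.07 (SE 0.19), Col6a4 and Col6a5 were dim, and the median of the 5 genes was -0.02.

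Of the multiplexins, Col18a1, the source of endostatin, read 9.46, 8.23 and 8.50 log2 in KO 1 to 3, against 8.71, 9.28 and 9.27 in WT 1 to 3. KO 1 was the highest of the 6 and KO 2 and KO 3 the lowest. The difference of -0.36 (SE 0.36) was -0.72 without KO 1 and -0.11 without KO 2. Col15a1, of the basement membranes of vessels and muscle, was dim, at 5.59, 4.43 and 4.78 log2 in KO 1 to 3, against 5.13, 5.35 and 5.52 in WT 1 to 3, and differed by -0.40 (SE 0.30). Leaving out KO 1 gave -0.73 and leaving out KO 2 gave -0.15. Col7a1, of the anchoring fibrils of skin, and Col26a1 were near the floor and differed by -0.02 and -0.03.

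The array-by-array pattern was shared by many collagens and did not follow the labels. KO 1 was the highest KO array in 14 of the 20 bright genes and the highest of all 6 in 10. KO 2 was the lowest KO array in 14, and WT 1 the lowest WT array in 13. KO 1 is also the KO array that stood with WT 2 and WT 3 in the measure of array composition, and the part of that composition in the collagen values was not tested. Col4a3 and Col4a4 went against this pattern in their brightest probe sets, with KO 1 the lowest KO array. KO 3 was the lowest in the second Col4a3 probe set, at 6.40 against 6.83 in KO 1. It was also the lowest in the dimmest Col4a4 probe set, at 6.31 against 6.99 in KO 1. The remaining Col4a4 probe set had KO 1 lowest. With the composition measure as a covariate, Col4a3 differed by -1.93, Col4a4 by -0.82, Col4a2 by -0.43 and Col4a1 by -0.22. For 11 of the 27 genes with several probe sets, these differed in sign, 5 bright genes among them.

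**Figure D4:**
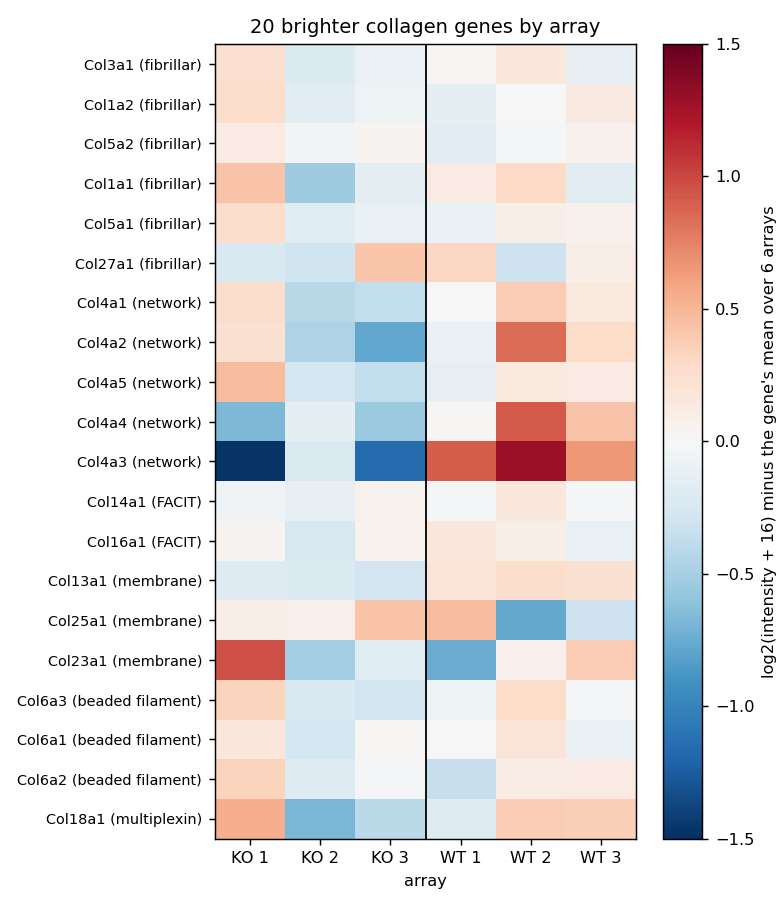
The 20 bright collagen genes (rows, with class) on each array (columns, KO 1 to 3 left of WT 1 to 3), coloured by log2(intensity + 16) minus the gene's mean over the 6 arrays. KO 1 is the highest KO array in 14 of the 20 rows, and Col4a3, Col4a4 and Col13a1 are the rows in which all KO arrays lie below all WT arrays.

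The genes that make, trim, break down and sense collagen showed no call either. Of the biosynthesis list, the enzymes and chaperones of the endoplasmic reticulum, 0 of 20 passed, 11 read lower and 9 higher, and the median was -0.01. The prolyl 3-hydroxylase genes P3h1 and P3h3 had the smallest p among bright lower genes, at -0.56 (SE 0.24) and -0.32 (SE 0.22). Their groups did not overlap but nearly met. KO 1 read 7.52 for P3h1, against 7.59 in WT 2, and 7.37 for P3h3, against 7.39 in WT 3. All KO arrays lay below all WT arrays in these 2 of the 20 genes, beside 3.81% of all genes. P4ha2, a prolyl 4-hydroxylase subunit, and P3h2, a hydroxylase that acts on basement membrane collagen, had the smallest p among bright higher genes, at 0.53 (SE 0.24) and 0.65 (SE 0.39), with overlap. Serpinh1, the collagen chaperone Hsp47, differed by -0.27 (SE 0.19).

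Of the list of procollagen processing and cross-linking, 0 of 11 passed, 8 read lower and the median was -0.18. Pcolce, which enhances removal of the C-propeptide, differed by -0.30 (SE 0.13) and Bmp1, the protease that removes it, by -0.26 (SE 0.20). No bright member read higher. Lox, the cross-linking oxidase, differed by -0.08 (SE 0.20). Of the breakdown list, 0 of 12 passed, with 8 lower, 4 higher and a median of -0.06. Timp3, an inhibitor of matrix proteases bound to the matrix, differed by -0.32 (SE 0.18) and Mrc2, a receptor that takes up collagen, by -0.28 (SE 0.23). Fap, a fibroblast protease, was dim and is named after its values were seen, at 6.31, 6.57 and 7.02 log2 in KO 1 to 3, against 5.78, 6.14 and 5.67 in WT 1 to 3 (difference 0.77, SE 0.25, adjusted p = 0.964 in limma). Of 8 collagen receptor genes 0 passed, 4 read lower and 4 higher, and the median was -0.01. Itga1, a receptor subunit that binds type IV collagen, differed by -0.39 (SE 0.27), Ddr2 by -0.14 (SE 0.15) and Ddr1, an epithelial collagen receptor, by 0.02 (SE 0.10).

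**Figure D5:**
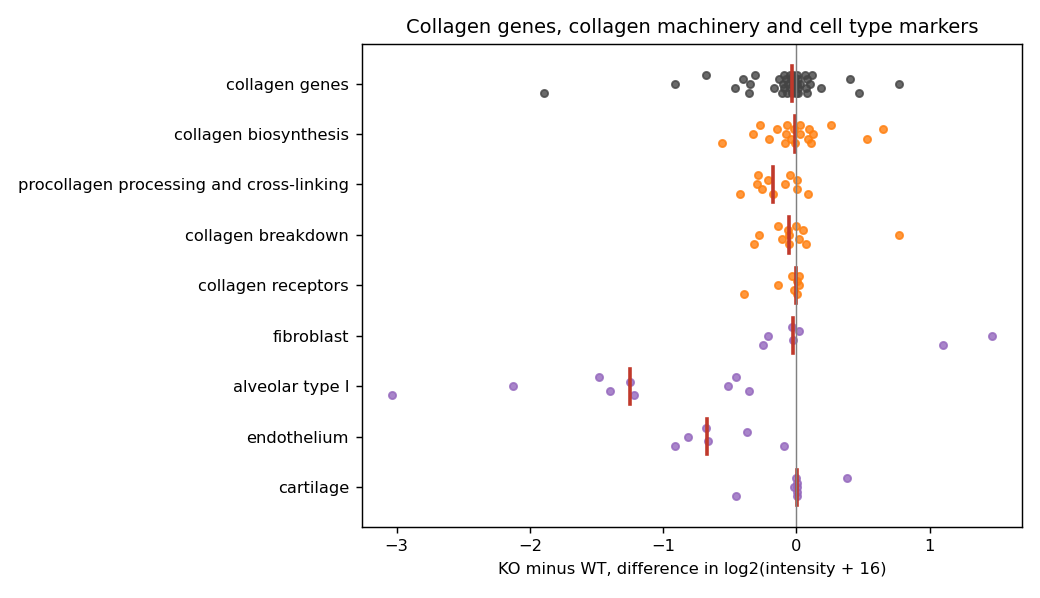
Differences between KO and WT lungs in log2(intensity + 16) for the 42 collagen genes, 4 lists of collagen machinery and 4 marker lists; each point is a gene and each upright bar a median. The medians of the collagens (-0.03), biosynthesis (-0.01) and receptors (-0.01) lie within 0.03 of 0, and those of alveolar type I (-1.25) and endothelium (-0.67) lie lower.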

How the data were processed

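Total RNA of mouse embryonic lungs at E18.5 was measured on 6 arrays. The authors deposited 1 linear intensity per probe set and array. GCRMA and MAS5 are named, per the submitters' processing notes, without version, role or order. The lowest value per array was 2.04 to 2.07 and the quantiles lay close together, so no further scaling was applied. The deposited experiment files hold other records (chip type, station, order of scanning) and no expression values.

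Values were log2-transformed after adding 16. Of 45101 probe sets, 64 were controls, 932 named several genes, 9160 had no name here and 34945 named 1 gene, with symbols updated through gene IDs for all but 204. The brightest probe set stood for each of 18193 genes. KO and WT were compared with limma 3.58.1 in R 4.3.3 (lmFit, eBayes with trend), two-sided, adjusted by Benjamini-Hochberg over all genes at 0.05. Every adjusted p comes from that fit, except where an alternative setting is named beside it. Intervals are 95% intervals of the fit for single genes, not adjusted over genes. Gene pairs within arrays are described with no test. The fit was tested on simulated data.

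Members, lists and tests were chosen with earlier results of these data known. A rule named any collagen gene past the threshold, bright ones without overlap, the 2 brightest of each class and bright type IV genes. In each pathway list it named the 2 bright genes of smallest p per direction. Other genes were named outside this rule, with their values known. Among them are Col1a1, Col9a1, Col23a1, Dcn, Lum, Cldn18, Pecam1, Sox9, Serpinh1 and Lox. Markers of alveolar type I and II cells, endothelium, fibroblasts, cartilage and striated muscle were read as lists. Alternatives covered scaling, pseudocount, dim genes, probe set choice, eBayes options, array weights, replicate block, station, composition and leaving out each array.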

Additional observations from a re-analysis of the deposited data

How the results depend on the processing

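No collagen gene passed under 19 of 20 alternatives, and with fluidics station as a block 1 did, Col11a1 (adjusted p = 0.038 in limma). Of all genes, 32 passed with station as a block and 10 within station 2, where the WT arm is WT 3 alone, and 0 without the trend, with the replicate block or with the composition covariate. Leaving out 1 array gave 0 to 1. Array numbers were not treated as pairing, since the residuals of same-numbered arrays correlated at -0.613, 0.0971 and -0.311. The replicate block changed no collagen call. The median of the network genes was -0.68 among bright genes only, since the filter leaves 5 of 9, -0.326 with station as a block or within station 2 and -0.0212 with the composition covariate, and it ran from -0.363 (without KO 1) to 0.000211 (without KO 2). That of the membrane genes ran from -0.178 (without KO 1) to 0.289 (without KO 3). The medians of the fibrillar, FACIT and type VI genes lay between -0.0843 and 0.0538 in every alternative that gave one. Col4a1, Col4a2, Col4a3, Col4a4, Col13a1, Col14a1, Col15a1, Col18a1, Col25a1, Col26a1 and Col6a3 kept their sign in every alternative run. The sign turned for genes with differences near 0, and the cause was not tested. Within station 2, and with the station block alike, Col3a1 was 0.0994, Col1a2 -0.125, Col16a1 0.0682, Col6a1 0.0744 and Col7a1 0.0367. Col1a2 was -0.0232 with median centring and -0.000558 with quantile normalisation, and Col3a1 was 0.0267 for the mean of its probe sets, 0.0911 for the most variable one and 0.014 with the composition covariate, where Col4a5 was 0.061. Col1a2 was also 0.158 for the mean of its probe sets and 0.48 for the most variable one. With 1 array left out, Col1a2 ran from -0.121 to 0.101, Col3a1 from -0.166 to 0.0538, Col4a5 from -0.363 to 0.0614, Col16a1 from -0.173 to 0.00454, Col6a1 from -0.155 to 0.0581 and Col7a1 from -0.0489 to 0.0426. No flag for an outlying array was possible with 3 arrays per group.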

Other observations

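Marker lists with no collagen gene named beside them gave these values. Of 6 alveolar type II markers, the surfactant-making cells, 4 read lower and 2 higher in KO lungs, with a median of -0.16 and a summed intensity of 38799 to 117088 in KO and 77999 to 102862 in WT lungs. Of 7 striated muscle markers 2 read lower and 5 higher, with a median of 0.09 and a summed intensity of 1660 to 4146 in KO and 1836 to 3293 in WT lungs. No gene of either list passed the test in limma, where 1 alveolar type II gene, Sftpd, and 0 striated muscle genes had an unadjusted p under 0.05.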
